A study of Homo sapiens with 9 samples.

Results

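The transcripts of 9 plasma membrane amino acid carriers, SLC7A5, SLC3A2, SLC7A1, SLC43A1, SLC1A4, SLC1A5, SLC38A1, SLC38A2 and SLC6A9, were followed in SW620 cells that received an aminoglycoside antibiotic. They were chosen by name, under the working label of stress-induced transporters, with earlier results of these data known. All 9 were found among the 28307 genes of the deposited count table and passed the filter on low counts. SW620, labelled wild type, is an established colon cancer line that was derived from a lymph node metastasis. Its cells were kept unattached, on coated plates, in medium with insulin and the growth factors EGF and basic FGF. The groups were streptomycin (SM) at 120 µM, dihydrostreptomycin (DSM) at 120 µM and untreated cells, with RNA taken after 48 h from 3 biological replicates of each, 9 libraries in all. SM inhibits bacterial protein synthesis by binding the small ribosomal subunit, and DSM differs from it in that the aldehyde of its streptose sugar is reduced to an alcohol. All cultures share 1 cell line, so no value below speaks for other lines.

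Cells take up amino acids through carriers that differ in what they move and in what drives them. When amino acids run short or translation is disturbed, kinases of the integrated stress response phosphorylate the initiation factor eIF2, and the transcription factor ATF4 is then translated more. ATF4, often paired with C/EBP proteins, binds C/EBP-ATF response elements in genes for amino acid synthesis, tRNA charging and amino acid transport, several of these carriers among them. Leucine and arginine brought in by such carriers also feed the mTORC1 pathway, which is regulated by amino acid sensors at the lysosome.

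The promoter windows of these genes were searched for the core of that element, as ATF4 binds it in genes for amino acid transport. For each gene that had any, 1 match is printed here. Windows of 300 bases, 250 upstream and 50 downstream of an annotated start, were taken from RefSeq (GRCh38.p14), and all 9 genes had at least 1 window, 16 in total. The core TGATGNAA, read on both strands, was found in 5 of the 16 windows, against 3.62% of all 35116 windows of this length. These windows belonged to 5 of the 9 genes. The 9 genes had 1 to 3 windows each, more windows give more room for a match, and no share over all genes was computed. Capitals mark the match, in the direction of the gene, so a match on the opposite strand reads as the reverse complement of the core.
SLC7A1, chr13:29595663-29595692, minus strand: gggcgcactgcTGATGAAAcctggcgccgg
SLC38A1, chr12:46266502-46266531, minus strand: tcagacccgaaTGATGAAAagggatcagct
SLC1A5, chr19:46784893-46784922, minus strand: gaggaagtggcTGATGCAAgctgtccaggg
SLC1A4, chr2:64989381-64989410, plus strand: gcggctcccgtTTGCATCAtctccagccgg
SLC3A2, chr11:62881725-62881748, plus strand: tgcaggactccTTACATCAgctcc
The first matching base lay 7 bases before an annotated start in SLC1A4, 4 before in SLC38A1 and 97 before in SLC1A5. In SLC7A1 and SLC3A2 the match lay 8 and 38 bases after a start. By the gene coordinates given below, the starts in SLC1A4, SLC38A1, SLC1A5 and SLC3A2 were internal ones. Their matches therefore lay inside the gene, not upstream of all of it. A second motif, TGACNNNGC, the core of the antioxidant response element, was found in 4 of the 16 windows (SLC3A2, SLC7A1, SLC7A5 and SLC1A5), against 13.3% of all windows. These are matches of letters only, and binding was not measured. The core TGATGNAA had no match in SLC6A9 and SLC43A1, both called with SM below, nor in SLC7A5 and SLC38A2. SLC1A5, which was called in no comparison, had 1 match of it. Whether a match goes with a change of level was not tested.

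The genes differ widely in level. Per kilobase of exon (GENCODE 29, union of exons of basic transcripts), mean levels over the 9 libraries in CPM (counts scaled to a common library total) per kb ran from SLC1A5 at 382 through SLC7A5 at 213, SLC3A2 at 133.5, SLC38A2 at 106, SLC38A1 at 82.8, SLC7A1 at 33.1, SLC43A1 at 27.1 and SLC6A9 at 4.67 to SLC1A4 at 3.73. Between neighbours in this order the ranges over libraries were separate for SLC1A5 and SLC7A5, for SLC38A1 and SLC7A1, and for SLC43A1 and SLC6A9. All other neighbours overlapped. The most abundant and the least abundant of the 9 thus belong to 1 family, SLC1, and carry overlapping substrates.

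Total counts lay between 39315662 and 65562227 per library, and the 9 genes took 0.371% to 0.475% of them. Replicates of a group were not copies of each other: chi-square values of their counts were 6.89 to 36.5 per degree of freedom. Of 12 colon epithelial markers, 10 reached 1 CPM in every library, while KRT20 stayed at or under 0.610 CPM and CDX1 at or under 0.0190 CPM. The same-numbered libraries of the 3 groups deviated together from their group means. Correlations were 0.227 to 0.582 for the 9 same-number pairs, against -0.404 to 0.161 for the 18 other pairs of different groups. Deviations within a group cancel out, so higher same-number values lower the others, and these ranges are not independent. Pairs numbered 1 gave 0.531 to 0.582, and those numbered 2 or 3 gave 0.227 to 0.342. What a number stands for in the cultures is not stated. Replicate 1 differed from the other replicates in every group, so each treatment effect below is paired by number and was recomputed without the libraries numbered 1.

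**Figure D1:**
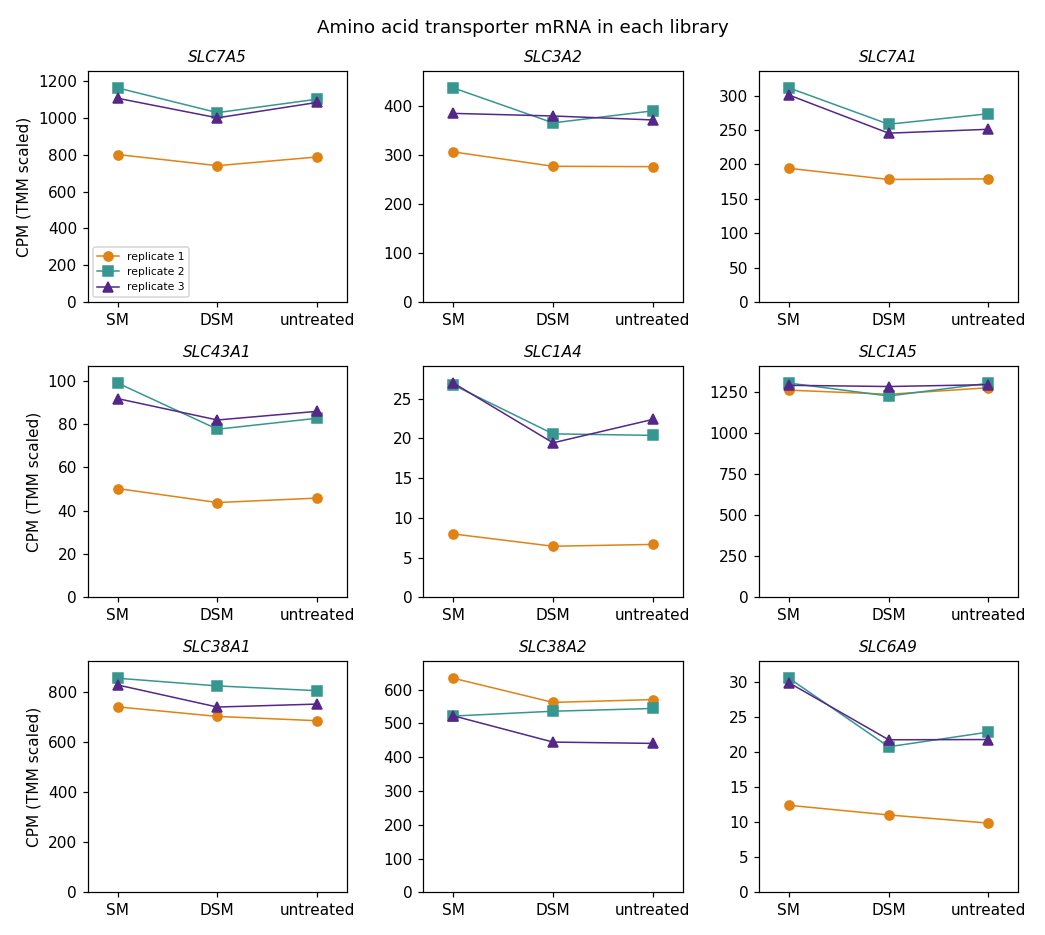
CPM of each transporter (y axis, TMM scaled, from 0) in SM, DSM and untreated cells (x axis), with 1 line and marker per replicate number. The line of replicate 1 lies below the other two for SLC7A5, SLC3A2, SLC7A1, SLC43A1, SLC1A4, SLC6A9 and SLC38A1 and above them for SLC38A2, and the SM point is the highest of every line in the same 7 genes.

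SM was compared with untreated cells first. SLC6A9, SLC1A4, SLC7A1 and SLC43A1 rose, by log2 fold changes of 0.41, 0.31, 0.19 and 0.16, and none of the 9 fell. Across all 15619 genes tested, 1.2% were called higher and 1.54% lower at an adjusted p of 0.05. The median log2 fold change was 0.12 over the 9 transporters and 0.00 over all genes tested. These calls rest on the pairing: with group as the only term, 0 of the 9 were called, each at an adjusted p of 1.00, and 3 of all genes (0.0192%) were.

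SLC6A9 (GlyT1, the sodium- and chloride-dependent glycine carrier; chr1:43996483-44031462, minus strand) changed most. It was counted at 12.4, 30.6 and 29.96 CPM in the SM libraries numbered 1, 2 and 3, against 9.91, 22.9 and 21.8 CPM in the untreated ones. Within every number the SM library was the higher, but the SM library numbered 1 lay below the untreated ones numbered 2 and 3, so the groups overlapped. Means were 24.3 ± 10.3 CPM with SM and 18.2 ± 7.22 CPM untreated (SD, n = 3 each). The paired log2 fold change of SLC6A9 was 0.41 (SE 0.062, 95% interval 0.28 to 0.54, adjusted p = 2.72e-04), and the 3 pairs gave differences of log2 CPM of 0.33, 0.42 and 0.46. Exons of SLC6A9 overlap those of CCDC24 on the opposite strand over 331 bases, and reads there cannot be told apart unless counting used strand. CCDC24 stood at 5.07 to 8.80 CPM and had a log2 fold change of -0.11 in SM against untreated (adjusted p = 0.695).

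SLC1A4 (ASCT1, which exchanges alanine, serine, cysteine and threonine; chr2:64988479-65023865, plus strand) had 7.97, 26.7 and 27.0 CPM in the SM libraries numbered 1 to 3, against 6.66, 20.4 and 22.4 CPM in untreated cells. Again each SM library was above the untreated library of its number, and the groups overlapped. The log2 fold change of SLC1A4 was 0.31 (SE 0.060, 95% interval 0.19 to 0.43, adjusted p = 0.00314), with group means of 20.6 ± 10.9 CPM for SM and 16.5 ± 8.57 CPM untreated (SD, n = 3 each). Without untreated replicate 2 the adjusted p of SLC1A4 was 0.106.

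SLC7A1 (CAT1, a carrier of arginine, lysine and ornithine; chr13:29509414-29595688, minus strand) was counted at 194, 311 and 301 CPM with SM, against 179, 274 and 251 CPM untreated, in libraries 1, 2 and 3. All 3 pairs went up, by 0.12, 0.19 and 0.26 in log2 CPM. The paired log2 fold change was 0.19 (SE 0.035, 95% interval 0.12 to 0.26, adjusted p = 0.00201), and without untreated replicate 3 the adjusted p was 0.0761.

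SLC43A1 (LAT3, a sodium-independent carrier of leucine and other large neutral amino acids; chr11:57484534-57515702, minus strand) had 50.2, 98.9 and 91.8 CPM with SM, against 45.8, 82.7 and 85.9 CPM untreated. The SM library was again the higher in every pair. Its log2 fold change of 0.16 (SE 0.039, 95% interval 0.08 to 0.24, adjusted p = 0.0205) was the least secure of the 4. The adjusted p of SLC43A1 was 0.134 without SM replicate 2 (log2 fold change 0.11), 0.122, 0.222 and 0.113 without untreated replicates 1, 2 and 3, and 0.0625 without all libraries numbered 1. With the libraries numbered 1 left out, SLC6A9, SLC1A4 and SLC7A1 were called at log2 fold changes of 0.44, 0.33 and 0.22.

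The heterodimer of SLC7A5 and SLC3A2 did not pass the test. SLC7A5 (LAT1, which brings in leucine and other large neutral amino acids in exchange for glutamine; chr16:87830023-87869507, minus strand) had 801, 1163 and 1106 CPM with SM, against 788, 1101 and 1084 CPM untreated. The log2 difference of SLC7A5 was 0.04 (95% interval -0.02 to 0.11, adjusted p = 0.569). SLC3A2 (the CD98 heavy chain, which carries SLC7A5, SLC7A11 and other light chains to the membrane; chr11:62856109-62888860, plus strand) had 306, 437 and 385 CPM with SM, against 276, 390 and 372 CPM untreated. Each SM library was above its untreated partner, by 0.15, 0.16 and 0.05 in log2 CPM, but the log2 fold change of SLC3A2 of 0.12 (95% interval 0.05 to 0.20) had an adjusted p of 0.0803. The p was 0.0232 without SM replicate 3, 0.0132 with no filter and 0.0327 in a fit of the SM and untreated libraries alone.

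SLC38A1, SLC38A2 and SLC1A5, sodium-dependent carriers that move glutamine among others, did not pass either. SLC38A1 (SNAT1; chr12:46183063-46269043, minus strand) had 742, 857 and 829.8 CPM with SM, against 687, 807 and 753 CPM untreated, higher in 3 of 3 pairs, with a log2 fold change of 0.11 (95% interval 0.05 to 0.18, adjusted p = 0.0645). That p was 0.0117 with DESeq2, 0.0336 with limma voom, 0.0439 with library totals, 0.0133 with no filter on low counts, 0.0467 in a fit of the SM and untreated libraries alone, 0.0315 without SM replicate 2 and 0.0456 without DSM replicate 3. SLC38A2 (SNAT2, the amino acid-responsive member of system A; chr12:46358188-46372773, minus strand) had 633, 522 and 522 CPM with SM, against 570.3, 544 and 441 CPM untreated. Pairs 1 and 3 went up and pair 2 went down, and the log2 fold change of SLC38A2 was 0.11 (95% interval 0.03 to 0.20, adjusted p = 0.185). It was 0.20 without SM replicate 2 (adjusted p = 9.86e-04), 0.05 without SM replicate 3 (0.645) and 0.08 without untreated replicate 3 (0.701). SLC1A5 (ASCT2, a glutamine exchanger; chr19:46774883-46788594, minus strand) had 1259, 1302 and 1288 CPM with SM, against 1273, 1301 and 1292 CPM untreated. Its log2 difference was -0.01 (95% interval -0.07 to 0.06, adjusted p = 0.952), so a change of SLC1A5 beyond these bounds was not seen.

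**Figure D2:**
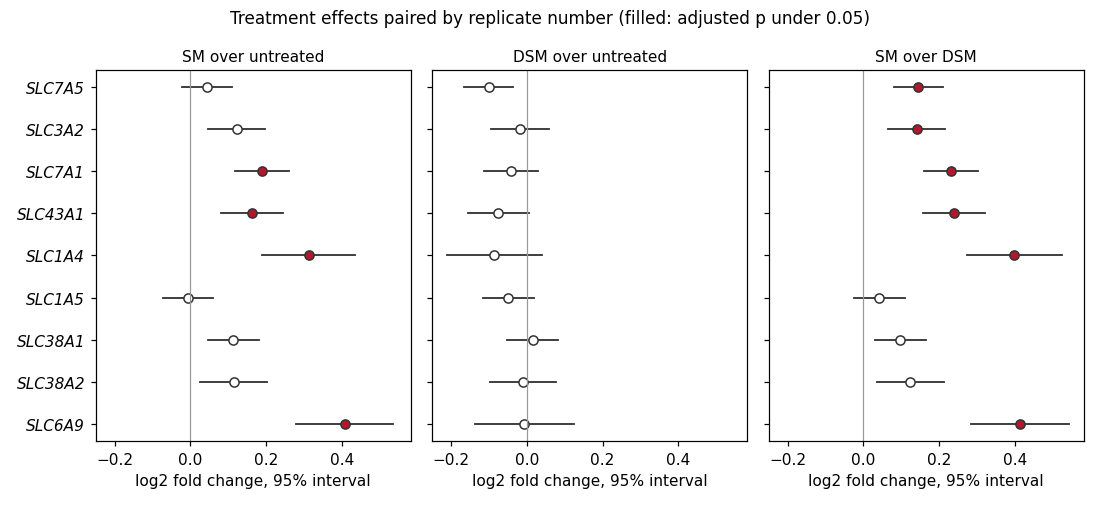
Log2 fold changes paired by replicate number (x axis, with 95% intervals) for each transporter (y axis) in SM over untreated, DSM over untreated and SM over DSM. Filled points have an adjusted p under 0.05: 4 in the left panel, 0 in the middle one and 6 in the right one.

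DSM was compared with untreated cells in the same way. None of the 9 transporters was called, and 0 of all genes tested were called in this comparison (0% of 15619; 650 had an unadjusted p under 0.05, 1 of the 9 transporters among them; DESeq2 and limma voom also called 0 of the 9). Log2 fold changes of the 9 ran from -0.10 to 0.02 with a median of -0.04, beside 0.00 over all genes. SLC7A5 was the one with an unadjusted p under 0.05: it had 740.5, 1028 and 1000.2 CPM with DSM, against 788, 1101 and 1084 CPM untreated, lower in all 3 pairs. Its log2 difference was -0.10 (SE 0.032, 95% interval -0.17 to -0.04, adjusted p = 0.999). The transporters called in SM against untreated had these levels with DSM: SLC6A9 at 11.1, 20.8 and 21.8 CPM, SLC1A4 at 6.42, 20.6 and 19.5 CPM, SLC7A1 at 178, 258 and 245 CPM, and SLC43A1 at 43.7, 77.6 and 81.9 CPM in libraries 1, 2 and 3. Their 95% intervals of the log2 difference were -0.14 to 0.12 for SLC6A9, -0.21 to 0.04 for SLC1A4, -0.11 to 0.03 for SLC7A1 and -0.16 to 0.01 for SLC43A1. The 3 cultures per group are compatible with any change inside these bounds, so a missed threshold does not show that DSM had no effect.

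SM and DSM, the aldehyde and its alcohol, were then set against each other at the same dose and time, 1 pair of compounds in all. This comparison uses the same SM and DSM libraries as the comparisons above and is no independent repeat of them. SLC6A9, SLC1A4, SLC43A1, SLC7A1, SLC7A5 and SLC3A2 were higher with SM than with DSM, each in 3 of 3 pairs, and none of the 9 was lower. Over all genes tested, 1.73% were called higher with SM and 2.15% lower. Without pairing by number, 0 of the 9 and 0% of all genes were called (adjusted p = 1.00 for each of the 9).

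SLC6A9 averaged 24.3 ± 10.3 CPM with SM and 17.9 ± 5.94 CPM with DSM (SD, n = 3 each), with a log2 fold change of 0.41 (SE 0.063, adjusted p = 2.24e-04). For SLC1A4 the means were 20.6 ± 10.9 CPM with SM and 15.5 ± 7.87 CPM with DSM, and the log2 fold change was 0.40 (SE 0.061, adjusted p = 2.36e-04). SLC43A1 had 80.3 ± 26.3 CPM with SM and 67.7 ± 20.9 CPM with DSM, a log2 fold change of 0.24 (SE 0.039, adjusted p = 6.50e-04). These SDs include the spread between replicate numbers, which the paired SEs do not. SLC7A1 stood at 269 ± 64.6 CPM with SM and 227 ± 43.1 CPM with DSM, a log2 fold change of 0.23 (SE 0.035, adjusted p = 2.24e-04).

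Both chains of the leucine exchanger were called in this comparison. SLC7A5 averaged 1023 ± 195 CPM with SM and 923 ± 159 CPM with DSM (SD, n = 3 each), a log2 fold change of 0.15 (SE 0.032, adjusted p = 0.00794). The adjusted p of SLC7A5 was 0.0696 without DSM replicate 2 and 0.0846 in a fit of the SM and DSM libraries alone, which called 4 of the 9. SLC3A2 averaged 376 ± 65.8 CPM with SM and 341 ± 55.7 CPM with DSM, a log2 fold change of 0.14 (SE 0.037, adjusted p = 0.0308). Its pairs gave log2 differences of 0.14, 0.26 and 0.02, and the call was lost without DSM replicate 2 (log2 fold change 0.09, adjusted p = 0.329), SM replicate 2 (0.10, adjusted p = 0.164), DSM replicate 1 (0.0764), SM replicate 1 (0.0587) or untreated replicates 1, 2 or 3 (0.0623, 0.0551 and 0.0755). It was also lost without all libraries numbered 1 (0.0927) and in a fit of the SM and DSM libraries alone (0.108). With the libraries numbered 1 left out, SLC6A9, SLC1A4, SLC7A1, SLC43A1 and SLC7A5 were called at log2 fold changes of 0.51, 0.42, 0.28, 0.26 and 0.16.

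For the other transporters no difference between SM and DSM passed the test. SLC1A5 had 1283 ± 22.0 CPM with SM and 1246 ± 30.7 CPM with DSM (SD, n = 3 each), a log2 difference of 0.04 (95% interval -0.02 to 0.11, adjusted p = 0.580). SLC38A1 had 809.6 ± 59.9 CPM with SM and 757 ± 62.6 CPM with DSM, a log2 difference of 0.10 (95% interval 0.03 to 0.16, adjusted p = 0.104, or 0.0408 with DESeq2). For SLC38A2 the values were 559 ± 64.4 CPM with SM and 514 ± 61.6 CPM with DSM, a log2 difference of 0.12 (95% interval 0.04 to 0.21, adjusted p = 0.115). That difference was 0.20 without SM replicate 2 (adjusted p = 5.39e-04) and 0.06 without SM replicate 3 (0.548). A missed threshold does not show that the compounds act alike on these 3 genes.

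For every transporter except SLC1A5, replicate 1 differed from the other replicates by more, on the log2 scale, than SM from untreated cells or from DSM. In the libraries numbered 1, 7 of the 9 transporters were lower than in those numbered 2 and 3, 1 was higher (SLC38A2) and 1 was not called (SLC1A5), over the 3 groups together. Over all genes tested, 20.3% were called lower and 21.7% higher in replicate 1. The median log2 fold change was -0.48 over the 9 and 0.00 over all genes. Replicate 1 was set against the others with results of these data known, so the adjusted p-values here are descriptions.

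SLC1A4 showed the widest gap: 7.97 CPM in SM, 6.42 CPM in DSM and 6.66 CPM in untreated cells of replicate 1, against 19.5 to 27.0 CPM in the 6 libraries numbered 2 and 3. Replicate 1 averaged 7.02 ± 0.835 CPM (SD, n = 3) and replicates 2 and 3 averaged 22.8 ± 3.32 CPM (SD, n = 6), and the ranges did not overlap. The log2 fold change of SLC1A4 was -1.69 (SE 0.057, adjusted p = 2.14e-16). Within groups the level in replicate 1 was 29.7% of that in replicates 2 and 3 for SM, 32.1% for DSM and 31.1% for untreated cells.

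SLC6A9 averaged 11.1 ± 1.27 CPM in replicate 1 (SD, n = 3) and 24.7 ± 4.41 CPM in replicates 2 and 3 (SD, n = 6), a log2 fold change of -1.14 (SE 0.057, adjusted p = 2.92e-13). CCDC24, which overlaps it on the opposite strand, moved the other way, by a log2 fold change of 0.48. SLC43A1 averaged 46.6 ± 3.30 CPM in replicate 1 and 86.5 ± 7.71 CPM in the others, and fell by 0.89 on the log2 scale (SE 0.035, adjusted p = 4.18e-15). In both genes every library numbered 1 lay below every library numbered 2 or 3.

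SLC7A1, SLC7A5 and SLC3A2 shifted by similar amounts, by -0.57 (SE 0.031) for SLC7A1, -0.48 (SE 0.028) for SLC7A5 and -0.44 (SE 0.032) for SLC3A2 on the log2 scale, in replicate 1 against the others. Their means were 184 ± 9.13, 776 ± 31.8 and 287 ± 17.1 CPM in replicate 1 (SD, n = 3), against 273 ± 27.1, 1081 ± 58.4 and 388 ± 25.5 CPM in replicates 2 and 3 (SD, n = 6), with no overlap. The proportion of light to heavy chain overlapped between the numbers: SLC7A5 had 2.61 to 2.85 counts per count of SLC3A2 in replicate 1 and 2.63 to 2.92 in replicates 2 and 3. A transcribed copy of SLC7A5, SLC7A5P2, had 372 to 571 counts, 0.821% to 1.04% of those of SLC7A5, and how reads that match both were counted is not stated. Exons of SLC7A5 and SLC1A5 also overlap genes on the opposite strand, AC126696.2 over 116 bases and AC008622.2 over 780.

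The paired families came apart. SLC38A1 was lower in replicate 1, at 711 ± 28.3 CPM (SD, n = 3) against 802 ± 45.6 CPM in replicates 2 and 3 (SD, n = 6). Its log2 fold change was -0.17 (SE 0.028, adjusted p = 2.81e-05), with ranges that overlapped. SLC38A2 was higher in replicate 1, at 589 ± 39.1 CPM against 501.5 ± 46.4 CPM in the others, by 0.23 on the log2 scale (SE 0.037, adjusted p = 1.80e-05) with no overlap. Counts of SLC38A1 per count of SLC38A2 were therefore 1.17 to 1.25 in replicate 1 and 1.48 to 1.71 in the others. SLC1A5 stood at 1255 ± 20.1 CPM in replicate 1 and 1281 ± 29.5 CPM in replicates 2 and 3 (log2 difference -0.03, 95% interval -0.09 to 0.03, adjusted p = 0.433), so counts of SLC1A4 per count of SLC1A5 were 0.00521 to 0.00633 in replicate 1, against 0.0152 to 0.0209 in the others.

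**Figure D3:**
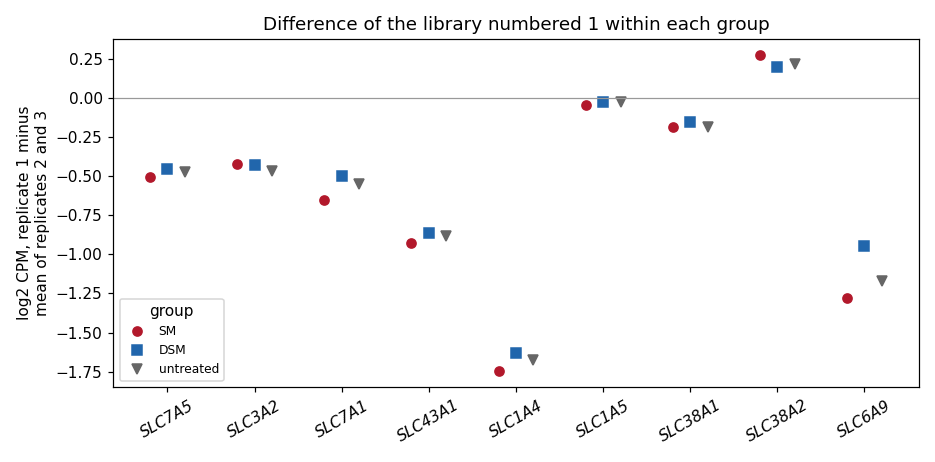
Log2 CPM of replicate 1 minus the mean of replicates 2 and 3 (y axis) for each transporter (x axis) within SM, DSM and untreated cells (markers). Each gene has the same sign in the 3 groups, from -1.75 to -1.63 for SLC1A4 to 0.20 to 0.28 for SLC38A2, and the groups lie farthest apart for SLC6A9, from -1.28 in SM to -0.94 in DSM.

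The difference by number had the same sign in each group for all 9 genes. For SLC1A4 it was -1.75 in SM, -1.63 in DSM and -1.68 in untreated cells on the log2 CPM scale, and for SLC38A2 it was 0.28, 0.20 and 0.22. SLC6A9 had the widest spread between groups, with -1.28 in SM, -0.94 in DSM and -1.17 in untreated cells. Tested as an interaction, the SM effect in pair 1 differed from that in pairs 2 and 3 by -0.11 to 0.06 over the 9 genes (log2 scale), with 0 called and 0 at an unadjusted p under 0.05, and 0.0128% of all genes were called. For the DSM effect the differences were -0.02 to 0.23, again with 0 called and a share of 0.0128% over all genes. The largest was that of SLC6A9, with a 95% interval of -0.05 to 0.50. With 1 library per group numbered 1 these tests are coarse: their 95% intervals reach 0.145 to 0.313 to either side.

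Of the variance of log2 CPM over the 9 libraries, the replicate number took 74.0% to 95.5% in 8 of the 9 genes and the group 4.18% to 22.1%. SLC1A5 was the exception, with 23.6% for the number and 50.2% for the group, in a gene whose 9 libraries lay between 1223 and 1302 CPM. Over all genes tested the medians were 52.2% for the number and 14.2% for the group.

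Markers of other cell types were summed in each library. The summed level of 8 fibroblast markers was 25.2 to 26.6 CPM in replicate 1 and 12.8 to 20.2 CPM in replicates 2 and 3. Only COL1A1 and LUM of that list reached 1 CPM in every library, and DCN and COL3A1 were at 0 in all 9. The sum of 5 endothelial markers was 3.98 to 4.35 CPM in replicate 1 against 1.85 to 2.83 CPM in the others, with CDH5, KDR and TEK at 1 count or fewer. The sum of 7 leukocyte markers was 20.6 to 23.1 CPM in replicate 1 and 22.6 to 29.5 CPM in the others, ranges that overlap, nearly all from LYZ and CD68, with PTPRC at or under 0.107 CPM. The 12 colon epithelial markers summed to 13564 to 14672 CPM in replicate 1 and 11442 to 12194 CPM in the others. Most of that sum came from 3 keratins: over the 9 libraries KRT8 had 5767 to 7461 CPM, KRT18 3172 to 3932 CPM and KRT19 1151 to 1885 CPM. The sum thus says little of the other markers in that list. The part of cell makeup in the difference was not tested, and in bulk RNA fewer cells of a type and less RNA per cell cannot be told apart.

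The same comparisons were made in other genes of the pathway. Of 42 further amino acid transporters, 23 were abundant enough to test. With SM against untreated, 1 of them was called, SLC7A11 (xCT, the cystine-glutamate exchanger and a partner of SLC3A2), higher at 94.9 ± 18.9 CPM with SM and 77.3 ± 17.6 CPM untreated (SD, n = 3 each). Its log2 fold change was 0.30 (adjusted p = 3.82e-05), and the median of the 23 was -0.01. Over all genes, 1.2% were called higher and 1.54% lower. With DSM none of the 23 was called, and the 2 most abundant, SLC38A5 and SLC43A3, had log2 differences of 0.00 and 0.01 from untreated cells. In SM against DSM, 1.73% of all genes were called higher and 2.15% lower. SLC7A11 was higher there (0.32, adjusted p = 1.45e-05) and 2 others of the 23 were lower. These were SLC7A8 (LAT2, another light chain of SLC3A2), at 92.0 ± 20.4 CPM with SM and 103 ± 16.2 CPM with DSM (log2 fold change -0.17, adjusted p = 0.00765), and SLC38A4, at 0.800 and 1.46 CPM (-0.92, adjusted p = 0.0383). In replicate 1 against the others, 7 of the 23 were higher and 6 lower, with a median of 0.09, beside 21.7% higher and 20.3% lower over all genes. SLC7A8 (0.46) and SLC6A6 (0.22) were among the higher ones, SLC7A11 (-0.35) and SLC43A3 (-0.24) among the lower.

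Of 21 genes of the integrated stress response, all tested, 5 were called higher with SM than untreated and none lower, beside 1.2% and 1.54% over all genes, with a median log2 fold change of 0.21. SESN2, a leucine sensor upstream of mTORC1, had 11.6, 36.2 and 33.7 CPM with SM, against 9.02, 27.1 and 22.1 CPM untreated (log2 fold change 0.48, adjusted p = 6.81e-05). PPP1R15A, which directs the dephosphorylation of eIF2, averaged 147 ± 24.6 CPM with SM and 122 ± 17.7 CPM untreated (0.27, adjusted p = 5.42e-05). ASNS, asparagine synthetase, stood at 6.29 and 4.56 CPM (0.44, adjusted p = 0.0203), CEBPG rose by 0.21 (adjusted p = 0.0132), and CEBPB, named after its values were seen, by 0.33 (adjusted p = 0.0326). ATF4 itself had 421, 727 and 688 CPM with SM, against 413, 569.7 and 581 CPM untreated. Its log2 fold change of 0.21 (SE 0.067) had an adjusted p of 0.158, and ATF4 is regulated largely at translation, which mRNA counts do not show.

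With DSM against untreated none of the 21 was called, the median was -0.03, and ATF4 and GCN1, the most abundant, each had a log2 difference of -0.03. SM against DSM called 7 higher and none lower, beside 1.73% and 2.15% over all genes, with a median of 0.23, among them SESN2 (0.67, adjusted p = 1.06e-06), CEBPB (0.51), PPP1R15A (0.25) and CEBPG (0.23). ATF4 was not called there (0.24, adjusted p = 0.0905). In replicate 1, 17 of the 21 were lower and none was higher, beside 20.3% and 21.7% over all genes, with a median of -0.52. ASNS was at 2.03 ± 0.117 CPM in replicate 1 (SD, n = 3) against 6.82 ± 1.31 CPM in replicates 2 and 3 (SD, n = 6), or -1.74 as a log2 fold change. SESN2 (-1.41), CEBPB (-0.83), CEBPG (-0.48) and ATF4 (-0.52) were lower as well, and ATF4 averaged 421 ± 7.96 CPM in replicate 1 against 610.5 ± 77.4 CPM in the others.

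Of 27 genes of mTORC1 and its amino acid sensors, 1 was called with SM against untreated, beside 1.2% higher and 1.54% lower over all genes. SESN2, also a sensor of this pathway and called higher, is counted in the stress response list above, not here. SESN3, a stress-responsive relative of SESN2, fell to 15.7 ± 3.94 CPM with SM, against 21.5 ± 6.69 CPM untreated (log2 fold change -0.45, adjusted p = 3.54e-05). It was also lower with SM than with DSM (-0.42), again the only 1 called. Over all genes, 1.73% were called higher and 2.15% lower there. None of the 27 was called with DSM against untreated, where MTOR and RPTOR, the most abundant, each had a log2 difference of -0.04. In replicate 1, 3 were higher, CASTOR2 (0.77) and SESN3 (0.66) among them, and 10 lower, with RRAGD at -0.69 and MLST8 at -0.30, beside 21.7% higher and 20.3% lower over all genes, and the median was 0.00.

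**Figure D4:**
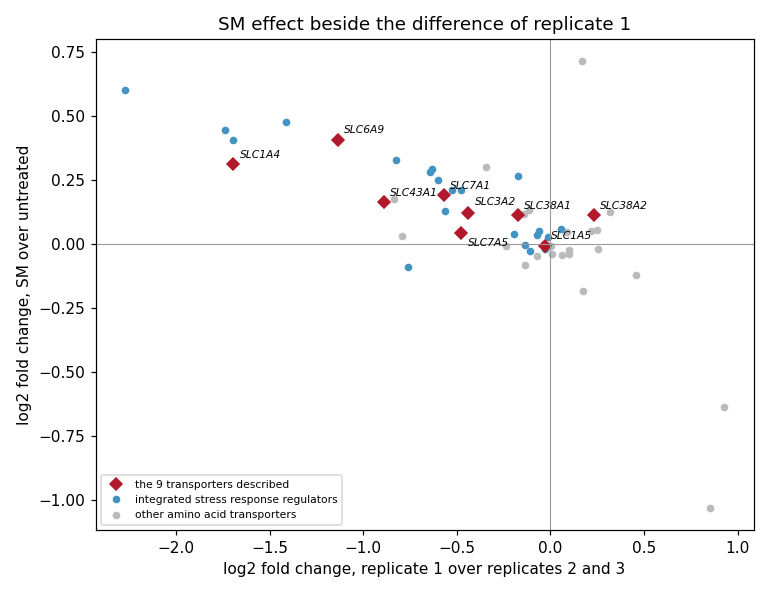
Log2 fold change of SM over untreated (y axis) against that of replicate 1 over replicates 2 and 3 (x axis), 1 point per gene for the 9 transporters (diamonds, named), the integrated stress response genes and the other amino acid transporters. SLC1A4 and SLC6A9 lie at the upper left, at 0.31 and 0.41 on the y axis and -1.69 and -1.14 on the x axis, and SLC1A5 lies near the origin.

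The mean pattern of the 9 transporters over the 9 libraries, each gene centred on its own mean log2 CPM, was -0.29, 0.35 and 0.30 in SM, -0.43, 0.12 and 0.08 in DSM and -0.43, 0.18 and 0.12 in untreated libraries 1, 2 and 3. SLC7A1 followed this mean most closely, with a root-mean-square difference of 0.03 on the log2 scale, then SLC7A5 at 0.07 and SLC3A2 at 0.08. SLC38A2 (0.39) and SLC1A4 (0.53) were farthest. Each transporter is itself part of this mean, which draws it closer, so its value is not on a par with those of genes outside the mean. SLC38A2 ran opposite to the mean between replicate numbers, and SLC1A4 swung more widely. Among 10285 other genes of at least 5 CPM on average, the 6 closest to the mean pattern were SARS1, C6orf132, XPOT, MARS1, NEIL2 and PLTP, with differences of 0.04 to 0.05. This is a likeness over 9 libraries that share the spread between replicate numbers, and it carries no test.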

How the data were processed

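Messenger RNA of 9 SW620 cultures was sequenced. Per the labels' protocols, TRIzol was used for extraction and a NuGEN Universal Plus mRNA-seq kit for the libraries. Per the submitters' processing notes, the build was hg38, and featureCounts 2.0.0, TopHat2 2.1.1, cutadapt 3.4 and DESeq2 1.26.0 were among the tools. The sources used here do not give the strand, multi-mapping or annotation settings. The values tested are the raw read counts per gene that the authors deposited without normalization. Their second, normalized table was not used.

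Tests used edgeR 4.0.16 and limma 3.58.1 under R 4.3.3, with DESeq2 1.42.0 as an alternative. filterByExpr (minimum count 10, minimum total 15) left 15619 genes, and TMM factors were 0.981 to 1.02. One robust quasi-likelihood fit over 9 libraries had group and replicate number as terms (4 residual degrees of freedom). The replicate numbers come from the labels, and all 9 correlations between same-numbered libraries were above 0.1. Libraries numbered 2 and 3 of different groups also passed that mark, at 0.104 to 0.161, so it cannot tell numbers 2 and 3 apart. The lowest same-number correlation was 0.227. F tests were two-sided, with Benjamini-Hochberg adjustment over all genes at 0.05. The labels name biological replicates but no separate source, so p-values measure only the spread between these cultures that group and replicate number leave. That spread was estimated with information borrowed from all genes, so tests and intervals rest on more than the 4 residual degrees of freedom. CPM are scaled by TMM, and log2 CPM used a prior count of 2. The tests were tried on simulated counts, but the planted changes were larger than any SM effect called here. That trial therefore does not bear on calls of this size. Transporters, lists, motifs, the naming rule and the pairing by replicate number were chosen with earlier results of these data known. Same-numbered libraries had been seen to deviate together before the pairing was chosen. The p-values of the treatment effects therefore do not come from a model fixed before the data were seen. From each list up to 4 called members per comparison are named, by adjusted p, or with none called the 2 of highest mean CPM, and ATF4 throughout.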

Additional observations from a re-analysis of the deposited data

How the results depend on the processing

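The alternatives tried were scaling by library totals or by DESeq2 size factors, a stricter filter (minimum count 50) or none, DESeq2, limma voom, no robust estimation, only the 2 groups compared, no replicate block, no libraries numbered 1, and each library left out in turn (4 of these for the tests of whether an effect differs in pair 1). Over the 9 transporters and all comparisons, 683 of these results kept direction and side of the threshold, 28 lost a call, 16 gained one and 11 changed sign, none of the 11 called. For replicate 1 against replicates 2 and 3 no transporter changed its call. Without the replicate block, transporters called higher numbered 0 of the main 4 for SM against untreated and 0 of 6 for SM against DSM. All genes called went to 3 higher (from 187) and 0 lower (from 241) for SM against untreated, to 0 higher (from 270) and 0 lower (from 336) for SM against DSM, and to 0 (from 2) for each test of whether an effect differs in pair 1. With no filter, 7 transporters were called higher in SM against untreated, and all genes called were 295 higher and 406 lower there, 7 in DSM against untreated, 519 lower in SM against DSM and 4 for the SM effect in pair 1, which voom put at 0. Only the 2 groups compared gave 4 genes for DSM against untreated and 160 higher for SM against DSM, and without the libraries numbered 1 DSM against untreated gave 1. With each library left out, SM against untreated called 2 to 5 transporters higher, 73 to 247 genes higher and 76 to 322 lower, and SM against DSM 119 to 359 genes higher and 135 to 487 lower. Signs changed in small log2 differences: SLC1A5 in SM against untreated ran from -0.020 to 0.0023, and in DSM against untreated SLC38A2 ran from -0.047 to 0.037, SLC3A2 from -0.062 to 0.030 and SLC6A9 from -0.083 to 0.071, the last at 0.0014 with library totals. The cause was not tested. The number of cultures, 3 per group, limits the smallest differences that could be called, and the lowest count of any transporter in a library was 357.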
